A study of Mus musculus with 6 samples.

Results

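The Krüppel-like factors (KLFs) examined here were 9 genes, Klf2, Klf4, Klf5, Klf6, Klf7, Klf9, Klf10, Klf13 and Klf15, taken by gene name from a table of 41386 genes measured in mouse hippocampus. RNA-seq read counts were available from 3 libraries of mice with cerebral ischemia and reperfusion (I/R) and from 3 libraries of sham-operated mice (sham). The mice were male, of the C57BL/6 strain (C57BL/6J in the study's methods), with no transgene or deleted gene named, and 56 days old. In the I/R group a filament had closed the left middle cerebral artery (focal MCAO) for 1.5 h, blood flow had then returned for 24 h, and the hippocampus of the injured side was taken. The sham group went through the operation without the filament being inserted. Each library was made from pooled hippocampi, and p-values therefore measure the spread between pools, not between single mice.

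KLF proteins are transcription factors that bind GC-rich and CACCC-containing DNA through zinc fingers at their carboxyl end, while the rest of the protein differs between members and recruits activators or repressors. KLF2 and KLF4 are best known from the endothelium, where blood flow induces them through the MEKK3, MEK5, ERK5 and MEF2 route and where they keep vessels in an anti-inflammatory and anti-thrombotic state. In neurons several KLFs set the capacity for axon growth, KLF7 and KLF6 promoting it and KLF4 and KLF9 limiting it, and KLF9 and KLF15 are known targets of the glucocorticoid receptor.

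After I/R the KLFs split in direction. Klf2, Klf4, Klf5, Klf6 and Klf10 were higher than in sham, by 1.58-fold (Klf10) to 3.87-fold (Klf4). Klf9, Klf13 and Klf15 were lower, by 1.23-fold (Klf9) to 1.53-fold (Klf13). Klf7 did not pass the test. A gene was called when edgeR's quasi-likelihood test gave a Benjamini-Hochberg adjusted p under 0.05 over all 18569 genes tested and the fold change was over 1.2 in either direction. All 9 members passed the filter on low counts, and the lowest count of a member in any library was 140. Of the 9 members 8 were called, 5 higher and 3 lower. Among all genes tested 41.8% were called, 21.8% higher and 19.9% lower. In 8 of 9 members the CPM ranges of the I/R and sham groups did not overlap, which was so for 57.4% of all genes tested. The median log2 fold change of the members was 0.66, against 0.03 for all genes tested.

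**Figure D1:**
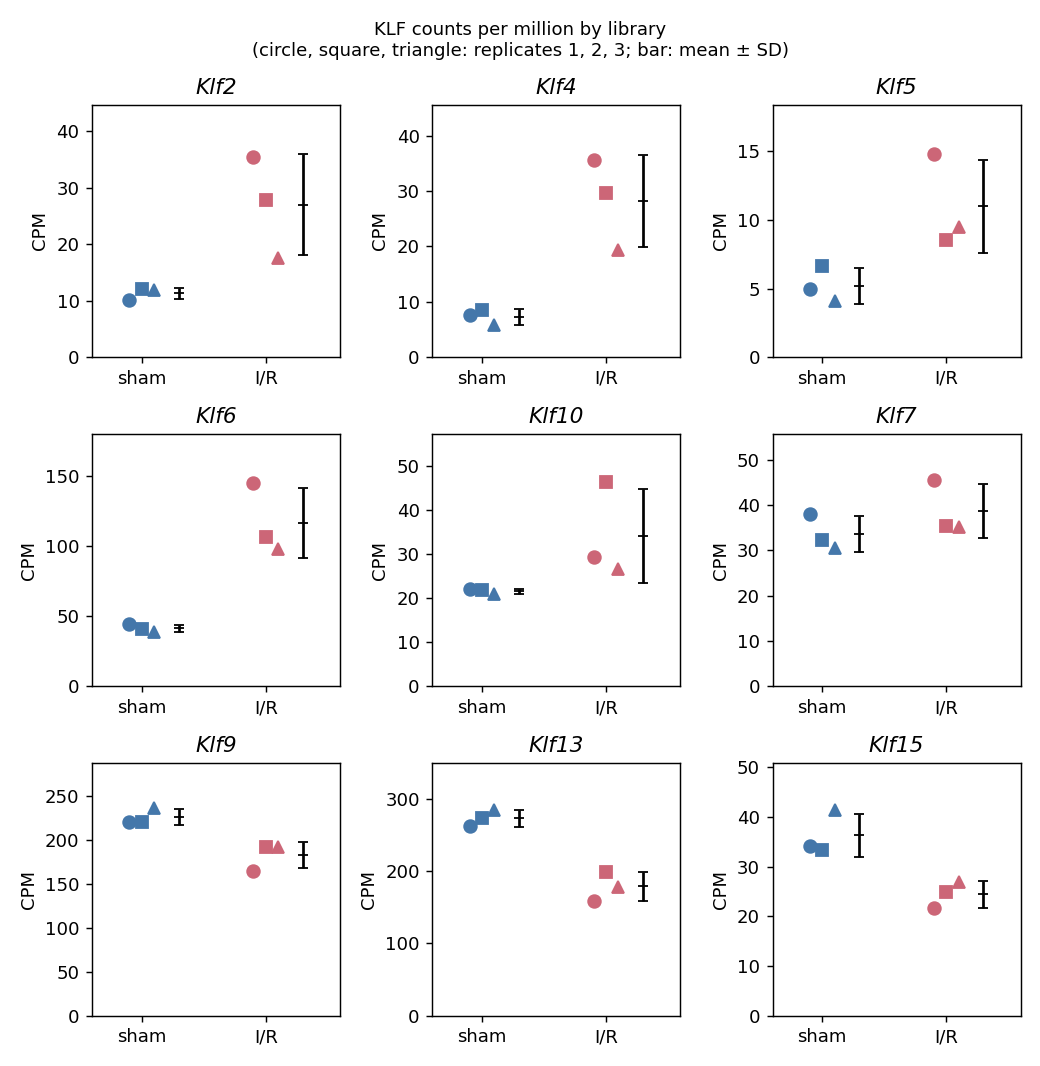
Level of each of the 9 KLF genes in CPM (counts relative to the scaled library size, y axis, linear, starting at 0) in every I/R and sham library, with points for libraries and bars for the mean and SD of 3 libraries. The 3 I/R points lie above all sham points for Klf2, Klf4, Klf5, Klf6 and Klf10, and below them for Klf9, Klf13 and Klf15, while the groups overlap for Klf7.

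The libraries held 37493042 to 44788547 counted reads. Levels are given as CPM relative to library sizes corrected with edgeR's TMM method, which corrects for differences in composition between libraries. Its factors were 1.06 to 1.15 after I/R and 0.908 to 0.921 in sham. When library size alone was used, the median log2 fold change of all genes moved from 0.03 to 0.28, so falls became smaller and rises larger. Under that scaling 6 members were higher and 1 lower. Of the 8360 genes called with it, 75.7% were higher, against 52.3% of those called with TMM. The defining markers of neurons and of hippocampal neurons were present in all libraries and lower in I/R, and choroid plexus markers varied between libraries of both groups, with summed levels of 32.6 to 3600 CPM after I/R and 36.4 to 4400 CPM in sham. In bulk tissue, fewer cells of a type and less RNA per cell cannot be told apart.

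The promoters of Klf4, Klf2 and Klf6, which rose, and of Klf13 and Klf15, which fell, are shown here with the motifs that KLF and SP proteins bind. The stretches lie just before the RefSeq transcription start in GRCm38.p6, are written 5′ to 3′ on the gene's strand, and have in capitals each CACCC or GGGCGG on either strand (reverse complements GGGTG and CCGCCC). Klf2 and Klf6 are cut short where an annotated exon begins.
Klf4 (chr4:55532476-55532725, minus strand): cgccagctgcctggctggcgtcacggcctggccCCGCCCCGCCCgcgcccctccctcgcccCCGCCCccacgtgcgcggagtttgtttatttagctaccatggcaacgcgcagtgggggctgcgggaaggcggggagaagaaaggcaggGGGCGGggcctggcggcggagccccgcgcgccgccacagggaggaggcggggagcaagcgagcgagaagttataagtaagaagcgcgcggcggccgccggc
Klf2 (chr8:72318812-72319032, plus strand): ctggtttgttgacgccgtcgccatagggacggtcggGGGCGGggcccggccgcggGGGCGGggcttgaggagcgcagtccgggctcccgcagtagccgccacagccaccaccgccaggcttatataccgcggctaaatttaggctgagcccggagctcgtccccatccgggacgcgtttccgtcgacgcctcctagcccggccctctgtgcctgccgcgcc
Klf6 (chr13:5861239-5861481, plus strand): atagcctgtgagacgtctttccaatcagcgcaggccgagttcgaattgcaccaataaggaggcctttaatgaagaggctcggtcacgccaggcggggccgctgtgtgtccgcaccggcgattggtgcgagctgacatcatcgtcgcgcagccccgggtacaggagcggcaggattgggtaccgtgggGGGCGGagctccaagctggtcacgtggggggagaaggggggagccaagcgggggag
Klf13 (chr7:63938916-63939165, minus strand): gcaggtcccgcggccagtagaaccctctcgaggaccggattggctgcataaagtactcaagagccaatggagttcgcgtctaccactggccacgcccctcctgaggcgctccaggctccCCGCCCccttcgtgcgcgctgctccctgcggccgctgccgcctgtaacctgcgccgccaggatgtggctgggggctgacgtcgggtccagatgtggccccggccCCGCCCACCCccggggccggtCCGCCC
Klf15 (chr6:90462326-90462575, plus strand): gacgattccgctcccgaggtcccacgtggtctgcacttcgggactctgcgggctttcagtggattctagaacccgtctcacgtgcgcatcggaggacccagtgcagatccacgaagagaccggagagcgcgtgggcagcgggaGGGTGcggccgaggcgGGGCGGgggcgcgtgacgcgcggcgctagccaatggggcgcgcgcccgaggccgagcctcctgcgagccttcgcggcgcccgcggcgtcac

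A RefSeq window of 250 bases before the start was found for 7 of the 9 members, not for Klf5 or Klf10. The GC-box core GGGCGG was in 6 of the 7 windows and in 33.0% of the 32544 distinct windows of all genes. The KLF-binding core CACCC was in 5 of 7 windows and in 52.1% of all windows. The Klf4 window held 4 GGGCGG and 0 CACCC, and that of Klf6 held 1 and 0. The Klf2 window held 2 GGGCGG and 1 CACCC. That CACCC lies 19 to 15 bases before the start, in the part left out above because of an annotated exon. Among the members that fell, Klf13 had 3 GGGCGG and 1 CACCC, with a CCGCCC and a CACCC sharing bases, Klf15 had 1 of each, and Klf9 had 0 GGGCGG and 1 CACCC. Klf7 had 1 GGGCGG and 3 CACCC. The direction of the fold change and the number of these motifs showed no simple order in these windows. GC content was 59.2% to 74.0% in the member windows, and the median of all windows was 52.4%.

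Other motifs were searched, only as the exact sequences given, on both strands in the same 7 windows. The AP-1 core TGACTCA, in 4.46% of all windows, the cAMP response element TGACGTCA, in 1.55%, the glucocorticoid receptor hexamer AGAACA, in 16.0%, and the MEF2-type sequences TAAAAATA, in 2.43%, and TATTTATA, in 1.57%, had 0 matches in the members. The serum response sequences CCATATTAG, in 0.0983% of all windows, and CCATATATG, in 0.151%, and the NF-kappa B site GGGACTTTC, in 0.292%, also had 0 matches. Variants of these motifs were not counted. The Klf2 stretch above holds ctaaatttag, which has the form of a MEF2 site but is neither of the MEF2-type sequences searched. The GCGTG form of the hypoxia-response core was in 4 of 7 member windows and in 28.3% of all windows. The ACGTG form was not searched, and the Klf4 stretch above, which lacks GCGTG, holds it. The number of windows with either form is therefore not given. These matches describe letters in a short window and are not measured binding sites.

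The first group of members was that of the endothelial and myeloid factors. Klf4, on chromosome 4 from 52319280 to 52324641 of the BALB/cJ assembly that the deposited table uses (identifier MGP_BALBcJ_G0028286), is also a factor of pluripotent cells and of monocyte differentiation. Its level was 35.6, 29.6 and 19.3 CPM in I/R replicates 1, 2 and 3 and 7.53, 8.56 and 5.75 CPM in sham replicates 1, 2 and 3. Every I/R library lay above every sham library, and the lowest of them, replicate 3, was still well above the highest sham library. The mean was 28.2 ± 8.28 CPM after I/R and 7.28 ± 1.42 CPM in sham (SD over 3 libraries in each group). The log2 fold change was 1.95 with a standard error (SE) of 0.25 (95% interval 1.38 to 2.52, edgeR's adjusted p = 0.00107). It stayed between 1.74 and 2.22 under the 16 alternative analyses, and the call held in all 16.

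Klf2, on chromosome 8 from 69987710 to 69990334 (MGP_BALBcJ_G0033755), is the flow-induced factor of quiescent endothelium and also keeps T cells and monocytes quiescent. Its level was 35.5, 27.8 and 17.6 CPM in the I/R libraries and 10.2, 12 and 11.8 CPM in the sham libraries. The groups did not overlap, and the sham libraries lay close together while the I/R libraries spread in the same order as for Klf4. The mean was 27.0 ± 8.94 CPM after I/R and 11.3 ± 0.998 CPM in sham, with a log2 fold change of 1.25 (SE 0.24, 95% interval 0.71 to 1.80, edgeR's adjusted p = 0.00459). Without I/R replicate 1, the library with the highest level, it was 1.0 and still called. In FPKM, reads scaled by gene length and library size, the level of Klf4 divided by that of Klf2 was 1.30, 1.38 and 1.41 after I/R and 0.958, 0.927 and 0.630 in sham. Klf4 was thus above Klf2 in each I/R library and below it in each sham library on that scale. This order depends on gene length, since the Klf4 FPKM values used a length of 1428 bases while the table gives 2965 bases. With the longer length the ratio was 0.624, 0.664 and 0.681 after I/R and 0.461, 0.446 and 0.303 in sham, so Klf4 was below Klf2 in all libraries, and the ratio was again higher in each I/R library than in each sham library.

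Known endothelial targets of KLF2 and KLF4 were counted as a list of 7 genes. All 7 were called higher and 0 lower, with a median log2 fold change of 2.13, against 21.8% called higher and a median of 0.03 among all genes. The number called was 5 to 7 under the alternatives, with 5 when any 1 sham library was left out and 6 with DESeq2, limma-voom or the replicate block. Some of these genes are induced by KLF2 and KLF4 and others are repressed by them, and both kinds rose. Of those that KLF2 induces, Nos3, the endothelial nitric oxide synthase, was 35.7 ± 10.7 CPM after I/R and 8.13 ± 1.44 CPM in sham (log2 fold change 2.13, SE 0.24, edgeR's adjusted p = 0.000758). Thbd, thrombomodulin of the anticoagulant system, was 85.3 ± 36.8 CPM against 23.2 ± 0.667 CPM (1.88, SE 0.28, edgeR's adjusted p = 0.00183). Nos3 and Thbd were picked out here after their values were seen.

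Of the targets that KLF2 is known to repress, Sele, the endothelial adhesion molecule E-selectin, had counts of 567, 163 and 99 after I/R and 26, 0 and 0 in sham. Its fitted log2 fold change was 4.79 (SE 1.14, edgeR's adjusted p = 0.0117), but with 2 sham libraries at 0 the size depended on single libraries. Without sham replicate 1 the fit gave 10.99 for Sele, which against counts of 0 is not a measured fold, and without I/R replicate 1 it gave 3.84 with an adjusted p of 0.124. The call held in 12 of 15 alternatives. The other leukocyte adhesion molecule of the list, Vcam1, had a log2 fold change of 0.39 (edgeR's adjusted p = 0.0491), with overlapping groups and a call in 9 of 16 alternatives.

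Endothelial markers moved in the same direction as Klf2 and Klf4. The summed level of 7 endothelium markers was 592, 452 and 379 CPM after I/R and 272, 270 and 266 CPM in sham. Of them 6 were higher and 1 lower, against 21.8% called higher and 19.9% called lower among all genes tested. Pecam1 and Cdh5, which encode adhesion proteins of endothelial junctions, had log2 fold changes of 1.92 and 1.91, while Slco1a4, a transporter of the blood-brain barrier, fell by 1.17 on the log2 scale. The log2 fold changes of Klf4 and Klf2 were 1.95 and 1.25. Of 5 mural cell markers 2 were higher and 3 lower. The part of vessel cell content in the Klf2 and Klf4 values was not tested.

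The summed levels of monocyte and macrophage markers and of neutrophil markers were also higher in every I/R library than in every sham library. The summed level of 5 monocyte and macrophage markers was 53.6, 28.3 and 32.8 CPM after I/R and 10.3, 13.2 and 12.7 CPM in sham, with 4 of 5 called higher. Of 7 neutrophil markers, 4 had enough counts to be tested, and their list summed to 30.3, 8.08 and 6.30 CPM after I/R and 1.64, 0.984 and 0.407 CPM in sham. Of the 4 tested, 3 were called higher, S100a8 with a log2 fold change of 4.66, S100a9 with 3.78 and Retnlg with 3.78. Counts in sham were only 20, 7 and 5 for S100a8, 29, 20 and 1 for S100a9 and 8, 1 and 1 for Retnlg. The sizes of these folds thus rest on few sham reads. The calls held in 15 of 15 alternatives for S100a8 and in 13 of 15 for S100a9 and for Retnlg. Of all genes tested, 21.8% were called higher and 19.9% lower. Counts of 1 read in all for Ly6g, a surface protein of neutrophils, and of 1 read in each I/R library for Elane, a granule protease, were too few to test, and both were at 0 in sham. The 6 microglia markers summed to 323, 232 and 265 CPM after I/R and 219, 249 and 236 CPM in sham, so these ranges overlapped, and 3 were higher and 2 lower. The part of these cell types in the KLF values was not tested.

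**Figure D2:**
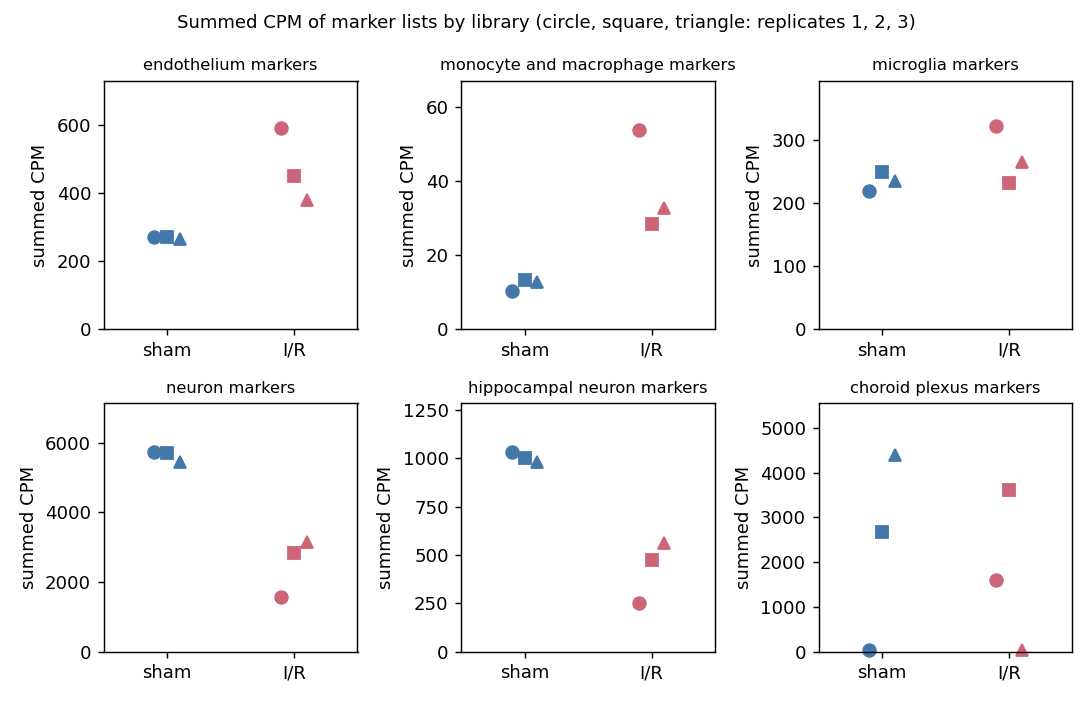
Summed level of 6 lists of cell type markers in CPM (y axis, linear, starting at 0, with its own range in each panel) in every I/R and sham library, 1 point per library. Endothelium markers sum to 379 to 592 CPM after I/R and 266 to 272 CPM in sham, neuron markers to 1570 to 3150 CPM and 5450 to 5730 CPM, and choroid plexus markers vary widely within both groups.

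The next group was that of the injury and growth factors. Klf6, on chromosome 13 from 2453109 to 2462035 (MGP_BALBcJ_G0020151), is an early response gene of wounded vessels and other injured tissues. Its level was 145, 107 and 98.1 CPM after I/R and 44.4, 40.8 and 38.9 CPM in sham. All I/R libraries lay well above the sham libraries, and the gap between the groups exceeded the spread within either. The mean was 117 ± 24.9 CPM against 41.4 ± 2.80 CPM, which gave a log2 fold change of 1.50 (SE 0.15, 95% interval 1.15 to 1.84, edgeR's adjusted p = 0.000547). It was the lowest adjusted p among the 9 members. Under the 16 alternatives the log2 fold change was 1.31 to 1.76, and the call held in all 16.

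Klf5, on chromosome 14 from 92871792 to 92886506 (MGP_BALBcJ_G0021582), promotes proliferation of epithelium and of vascular smooth muscle. Its level was 14.8, 8.58 and 9.47 CPM in the I/R libraries and 4.94, 6.64 and 4.07 CPM in the sham libraries. The groups did not overlap, but I/R replicate 2 lay near sham replicate 2. The mean was 11.0 ± 3.38 CPM after I/R and 5.22 ± 1.31 CPM in sham. The log2 fold change was 1.07 (SE 0.26, 95% interval 0.46 to 1.68, edgeR's adjusted p = 0.0139). The call was lost without sham replicate 1 (1.02, adjusted p = 0.0534) and without sham replicate 3 (0.91, adjusted p = 0.0559).

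Klf10, on chromosome 15 from 35423330 to 35429653 (MGP_BALBcJ_G0021774), is an early gene of TGF-beta signalling and a repressor that binds Sin3 proteins. Its level was 29.3, 46.4 and 26.7 CPM after I/R and 22.0, 21.9 and 21.0 CPM in sham. The groups did not overlap, and I/R replicate 2 stood above the other I/R libraries. The mean was 34.1 ± 10.7 CPM against 21.6 ± 0.574 CPM, which gave a log2 fold change of 0.66 (SE 0.20, 95% interval 0.20 to 1.12, edgeR's adjusted p = 0.0304). It was 0.35 when I/R replicate 2 was left out (adjusted p = 0.0450). Leaving out sham replicate 1, 2 or 3 gave 0.66, 0.66 and 0.63, with adjusted p-values of 0.0846, 0.0946 and 0.0985, so the call was lost each time. Klf10 differed from the other members that rose in its order across I/R libraries: replicate 1 was highest for Klf2, Klf4, Klf5 and Klf6, and replicate 2 for Klf10.

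Klf7, on chromosome 1 from 62022500 to 62115832 (MGP_BALBcJ_G0016032), is a neuronal factor that promotes axon growth. Its level was 45.6, 35.3 and 35.1 CPM after I/R and 38.0, 32.3 and 30.6 CPM in sham. The groups overlapped, since sham replicate 1 lay above I/R replicates 2 and 3. The mean was 38.7 ± 5.96 CPM against 33.6 ± 3.91 CPM. The log2 fold change was 0.20 (SE 0.14, 95% interval -0.11 to 0.52, edgeR's adjusted p = 0.271). Only scaling by library size gave a call (0.46, adjusted p = 0.0439).

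The members that fell were, per gene length, the most abundant ones in sham. Klf13, on chromosome 7 from 63498267 to 63551480 (MGP_BALBcJ_G0032323), is a Sin3-binding repressor in many tissues and an activator of the chemokine gene Ccl5 in T cells. Its level was 159, 199 and 178 CPM after I/R and 262, 274 and 285 CPM in sham. Every I/R library lay below every sham library, and the gap between the groups exceeded the range within either. The mean was 179 ± 19.7 CPM against 273 ± 11.7 CPM. The log2 fold change was -0.61 (SE 0.11, 95% interval -0.86 to -0.36, edgeR's adjusted p = 0.00358), and it was -0.72 to -0.36 under the 16 alternatives, with the call kept in all 16.

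Klf9, on chromosome 19 from 20148590 to 20174541 (MGP_BALBcJ_G0024959), is induced by thyroid hormone and glucocorticoids during neuronal maturation. Its level was 165, 192 and 192 CPM after I/R and 221, 220 and 236 CPM in sham. The groups did not overlap, and I/R replicate 1 was the lowest library. The mean was 183 ± 15.2 CPM against 226 ± 9.10 CPM, which gave a log2 fold change of -0.30 (SE 0.10, 95% interval -0.53 to -0.08, edgeR's adjusted p = 0.0372). This call was the least stable of the 8, holding in 6 of 16 alternatives. With library size only the log2 fold change was -0.05 (adjusted p = 0.628), and without I/R replicate 1 it was -0.24, under the fold limit.

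Klf15, on chromosome 6 from 88440781 to 88453443 (MGP_BALBcJ_G0031018), controls amino acid and glucose metabolism and is induced by glucocorticoids. Its level was 21.6, 25.0 and 26.9 CPM after I/R and 34.1, 33.3 and 41.4 CPM in sham. All I/R libraries lay below the sham libraries, and I/R replicate 1 was again the lowest. The mean was 24.5 ± 2.71 CPM against 36.3 ± 4.42 CPM, which gave a log2 fold change of -0.57 (SE 0.13, 95% interval -0.86 to -0.27, edgeR's adjusted p = 0.00925). With library size only it was -0.32 (adjusted p = 0.0614), no longer called. I/R replicate 1 was thus the lowest I/R library for all 3 members that fell and the highest for 4 of the 5 that rose. Without it, the rises of Klf2, Klf4, Klf5 and Klf6 were 1.0, 1.74, 0.79 and 1.31 on the log2 scale, and all 4 calls were kept.

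Neuronal markers fell with Klf9, Klf13 and Klf15. The 5 neuron markers summed to 1570, 2840 and 3150 CPM after I/R and 5730, 5700 and 5450 CPM in sham, and all 5 were called lower. The 7 hippocampal neuron markers summed to 249, 473 and 560 CPM after I/R and 1030, 1000 and 981 CPM in sham, with 6 called lower and Neurod6 not called. Of all genes tested, 19.9% were called lower. The neuron marker Snap25 had a log2 fold change of -1.30 and Tubb3 one of -1.02, beside -0.61, -0.57 and -0.30 for Klf13, Klf15 and Klf9. Astrocyte markers were mixed, with Gfap at 2.31 and Slc1a2 at -0.96 among 2 higher and 3 lower of 6. The part of neuronal content in the falls of the 3 members was not tested.

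**Figure D3:**
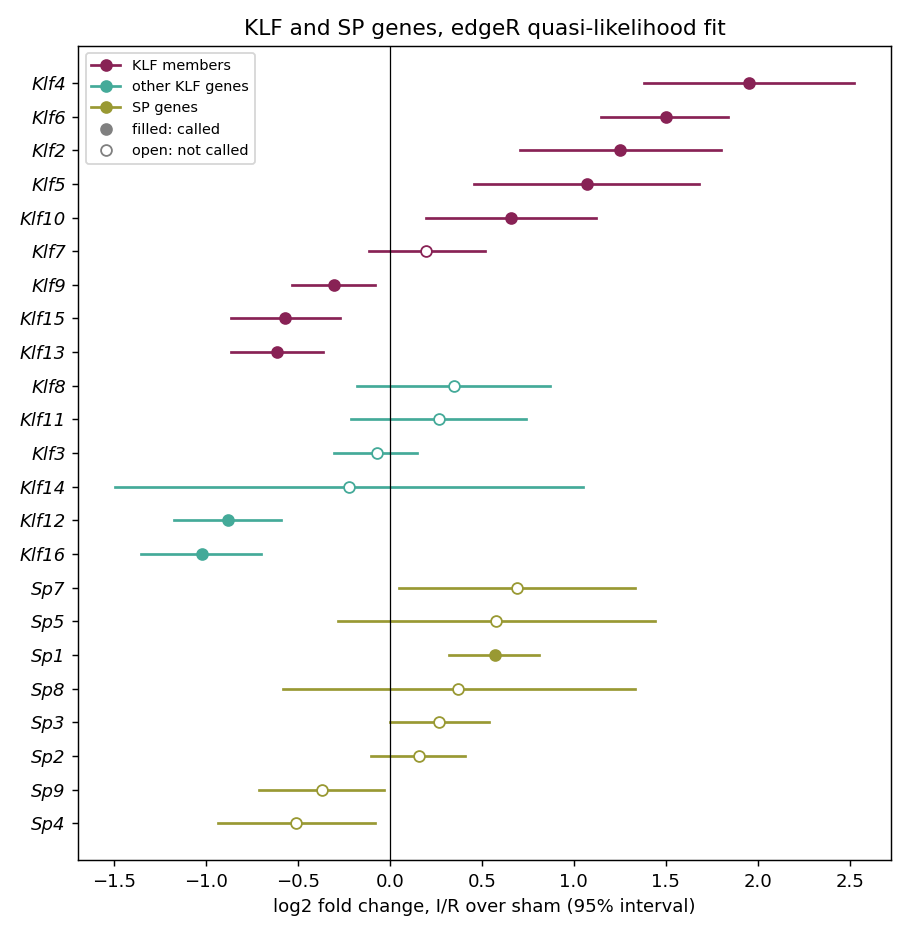
Log2 fold change of I/R over sham (x axis) with its 95% interval for each KLF and SP gene that was tested, with called genes marked. Intervals of Klf4, Klf6, Klf2, Klf5 and Klf10 lie above 0, those of Klf13, Klf15, Klf9, Klf12 and Klf16 below 0, and Sp1 is the 1 SP gene called.

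The levels of the members per gene length were compared in FPKM. In sham the order was Klf13 at 123, Klf9 at 63.3, Klf15 at 15.1, Klf7 at 9.53, Klf6 at 8.99, Klf10 at 6.50, Klf2 at 5.60, Klf4 at 4.66 and Klf5 at 2.77 FPKM. Klf7 and Klf6 overlapped between libraries, as did Klf2 and Klf4. In I/R the order was Klf13 at 95.7, Klf9 at 61.0, Klf6 at 30.5, Klf4 at 21.7, Klf2 at 16.1, Klf7 at 13.1, Klf10 at 12.2, Klf15 at 12.1 and Klf5 at 7.02 FPKM. From Klf6 to Klf15 each gene overlapped its neighbour in that order. Klf6 thus stood above Klf15 after I/R and below it in sham. On this scale, which has no composition correction, the Klf9 libraries of the groups overlapped.

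The length behind the FPKM values was shorter than the length column of the table for 4 members, by 1.13-fold for Klf15, 2.08-fold for Klf4, 2.37-fold for Klf7 and 3.01-fold for Klf13. With the length column Klf9 came first, at 63.3 FPKM in sham and 61.0 in I/R, and Klf13 second, at 40.9 and 31.8 FPKM. Klf4 was then last in sham, at 2.25 FPKM. Comparisons of 1 gene between libraries do not depend on this length.

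**Figure D4:**
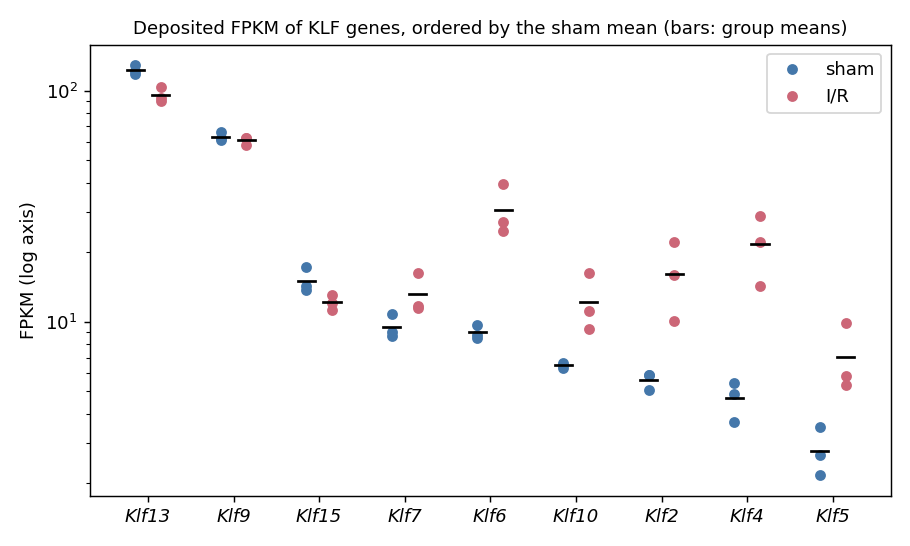
Deposited FPKM of the 9 members (y axis, logarithmic) in every sham and I/R library, ordered by the sham mean. Klf13 and Klf9 lie above the other members in both groups, and Klf6, Klf4 and Klf2 move up from 8.99, 4.66 and 5.60 FPKM in sham to 30.5, 21.7 and 16.1 FPKM in I/R.

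The make-up of the 9 members' summed FPKM also differed. Klf9 and Klf13 together held 51.7%, 60.1% and 63.6% of it in the I/R libraries and 77.0%, 77.6% and 78.8% in the sham libraries. Klf2, Klf4 and Klf6 together held 31.5%, 23.5% and 20.2% after I/R and 8.36%, 8.51% and 7.29% in sham. The groups did not overlap in either share. The FPKM of Klf13 divided by that of Klf6 was 2.28, 3.84 and 3.76 after I/R and 12.2, 13.9 and 15.2 in sham. The sum itself overlapped between groups, at 287, 277 and 244 FPKM after I/R and 235, 236 and 247 FPKM in sham. With the length column of the table the Klf13 to Klf6 ratio was 0.757, 1.27 and 1.25 after I/R and 4.04, 4.61 and 5.05 in sham. The share of Klf9 and Klf13 was then 43.8% to 56.0% after I/R and 70.0% to 71.5% in sham, and that of Klf2, Klf4 and Klf6 25.1% to 37.4% and 10.6% to 11.9%, again without overlap. The sum, however, no longer overlapped with those lengths, at 166 to 202 FPKM after I/R and 145 to 153 FPKM in sham. These shares restate the changes of the single members.

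Classed by the partner that the amino-terminal part binds, 15 KLF genes were counted in 3 classes set down with the values known. Klf15, called lower, belongs to none of these classes and is not in these counts. Of 5 tested genes that bind acetyltransferases (Klf2, Klf4, Klf5, Klf6 and Klf7), 4 were higher and 0 lower. Of 6 genes whose products bind Sin3 (Klf9, Klf10, Klf11, Klf13, Klf14 and Klf16), 1 was higher and 3 were lower. Of 3 that bind the corepressor CtBP (Klf3, Klf8 and Klf12), 0 were higher and 1 was lower. The median log2 fold changes were 1.25, -0.26 and -0.07. Among all genes tested 21.8% were called higher and 19.9% lower, and the median was 0.03. Since the classes were set down with the values known, these counts restate the single genes, and a difference between classes was not tested.

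Among the KLF genes outside the 9 members, 6 were tested, 0 were higher and 2 were lower. Of all genes tested, 21.8% were called higher and 19.9% lower. Klf16, a Sin3-binding repressor, was 30.1 ± 5.77 CPM after I/R and 61.1 ± 1.79 CPM in sham, with a log2 fold change of -1.02 (SE 0.14, edgeR's adjusted p = 0.00145). Klf12, which represses through CtBP, was 6.95 ± 0.398 CPM against 12.8 ± 0.487 CPM, which gave a log2 fold change of -0.88 (SE 0.12, edgeR's adjusted p = 0.00162). Both calls held in all 16 alternatives. Klf3, a CtBP-binding repressor, had a log2 fold change of -0.07 (edgeR's adjusted p = 0.574), Klf8 of 0.35, Klf11 of 0.27 and Klf14 of -0.22, all without a call. Klf1, the factor of red cell precursors, had 3 to 10 counts a library and was not tested.

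The SP factors share the zinc finger type of the KLFs and bind the same GC-rich DNA. Of 8 tested, Sp1 was higher and 0 were lower, against 21.8% called higher and 19.9% called lower among all genes tested. Sp1 was 47.8 ± 5.62 CPM after I/R and 32.2 ± 0.714 CPM in sham, with a log2 fold change of 0.57 (SE 0.11, edgeR's adjusted p = 0.00434). Sp4, which is abundant in neurons, was 20.0 ± 4.77 CPM against 28.3 ± 3.11 CPM (-0.51, edgeR's adjusted p = 0.0571). With library size only, 4 SP genes were called higher, and 75.7% of all genes called with it were higher.

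The partners and regulators of the KLFs were counted next. Of 11 cofactors and ubiquitin ligases 2 were higher, Crebbp, an acetyltransferase, by 0.33 and Sin3b, a corepressor scaffold, by 0.29 on the log2 scale, and 0 were lower. These calls held in 12 and 9 of 16 alternatives. Of 14 genes that act upstream of KLF genes 1 was higher and 7 lower, with a median log2 fold change of -0.30. Beside both lists, 21.8% of all genes tested were called higher and 19.9% lower, and the median of all genes was 0.03. The largest falls were in receptors. Thra, the thyroid hormone receptor alpha, was 450 ± 98.0 CPM after I/R and 1140 ± 54.4 CPM in sham (-1.35, SE 0.18, edgeR's adjusted p = 0.00125). Nr3c2, the mineralocorticoid receptor, was 88.9 ± 42.4 CPM against 208 ± 10.5 CPM (-1.23, SE 0.34, edgeR's adjusted p = 0.0223). The Nr3c2 call held in 12 of 16 alternatives and that of Thra in 16 of 16. With library size only the same list had 5 higher and 3 lower, and 75.7% of all genes called with it were higher.

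Within that upstream list, the calls of the flow-sensing kinases depended on the scaling. Map3k3, which encodes MEKK3, had a log2 fold change of 0.29 (edgeR's adjusted p = 0.0473, called in 6 of 16 alternatives), Map2k5, which encodes MEK5, had -0.40 (edgeR's adjusted p = 0.0236, called in 10 of 16), and Mapk7, which encodes ERK5, had a log2 fold change of 0.13 (edgeR's adjusted p = 0.336). With library size only, Map3k3 was 0.55 and Mapk7 0.39, both called, and Map2k5 was -0.15 and not called. The glucocorticoid receptor gene Nr3c1 fell by 0.32 on the log2 scale (edgeR's adjusted p = 0.0233), a call kept in 9 of 16 alternatives, with -0.07 under library size only. Of 9 glucocorticoid-responsive genes outside the KLF family, 5 were higher and 0 lower, with a median of 0.64. The shares over all genes tested were 21.8% higher and 19.9% lower, with a median of 0.03. Mt2, a metallothionein, and Errfi1, a brake on the EGF receptor, had log2 fold changes of 3.01 and 1.10. Pdk4, Per1 and Sgk1 were also called higher, at 1.10, 0.73 and 0.64. Fkbp5, Zbtb16, Tsc22d3 and Ddit4 had log2 fold changes of -0.25, -0.19, -0.16 and -0.11 and were not called. Klf9 and Klf15, which are targets of the same receptor, were lower.

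Targets named for the other members were counted as a list of 18 genes, of which 17 were tested. Of these 9 were higher and 4 lower, with a median log2 fold change of 0.61. Over all genes tested, 21.8% were called higher and 19.9% lower, with a median of 0.03. Ccl5, the T cell chemokine that KLF13 activates, and Cdkn1a, a cell cycle inhibitor that KLF4 and KLF6 activate, had the largest rises, at 3.80 and 3.65. Ccl5 thus rose while Klf13 fell. Ccl5 counts were 115, 36 and 58 after I/R and only 5, 4 and 4 in sham, so the size of its fold rests on few sham reads. Many other regulators act on each of these targets, and these data did not measure KLF protein or binding.

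For each member the named genes with the most similar pattern were taken over the 6 libraries, as the smallest root mean square (RMS) difference in centred log2 CPM. All 6 libraries share the group difference, so this is a description of likeness in level only. Nearest to Klf2 were Nudt22 at 0.088 and H6pd at 0.103. Nearest to Klf4 were Sertad1 at 0.079 and Nos3 at 0.095, the second of which is in the endothelial list above. Klf4 had 21 genes within 0.2, the fewest of the members.

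Klf6 had Mybbp1a at 0.027 and Bach1 at 0.048 as its nearest genes by that measure, and Klf5 had Sln at 0.082 and Slc16a3 at 0.085. For Klf10 they were Gm24276 at 0.078 and Mak at 0.082. Klf2, Klf5, Klf6 and Klf10 had 92 to 224 genes within 0.2. Klf7, Klf9, Klf13 and Klf15 had from 2307 (Klf15) to 4165 (Klf9) genes within that distance. Their nearest genes were Prr12 (0.024) and Mettl26 (0.035) for Klf13, Fam172a and Akap10 (0.028 each) for Klf9, Ift80 (0.058) and Zfp493 (0.063) for Klf15, and Prkd3 (0.044) and Hirip3 (0.050) for Klf7.

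**Figure D5:**
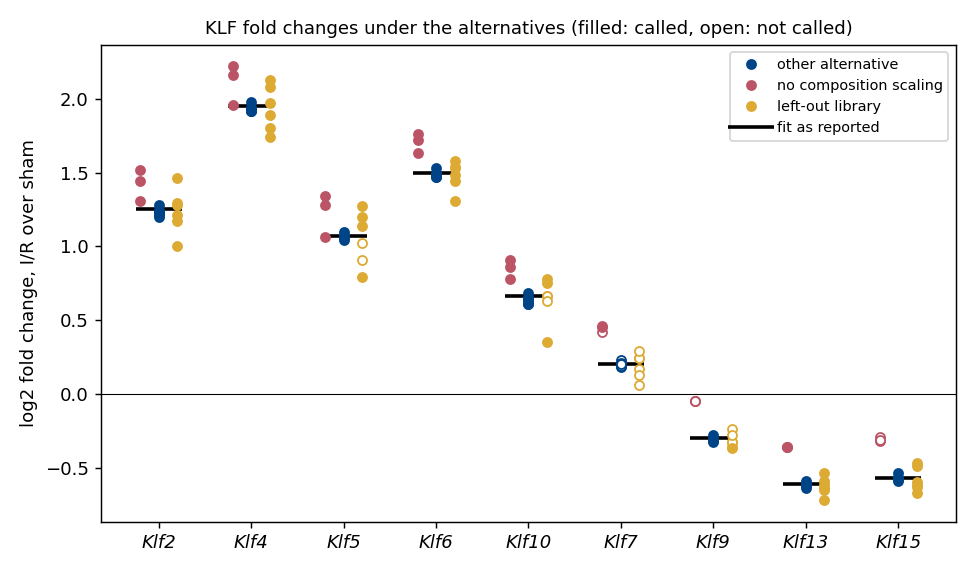
Log2 fold change of I/R over sham (y axis) of each member (x axis) under the analysis as reported and under 16 alternatives, with filled points where the gene was called, open points where it was not, and a bar for the fit as reported. Klf2, Klf4, Klf6 and Klf13 are called throughout, while Klf9 is called in 6 of 16 and reaches -0.05.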

How the data were processed

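Per the study's methods, the authors aligned reads to an Ensembl genome with TopHat2 and counted them per gene with HTSeq. The submitters' processing notes also name Bowtie 0.12.2 and the mm8 build, while the identifiers in the deposited table are those of the BALB/cJ strain annotation for 40303 of 41386 genes. The strand setting of the counting is not given in the sources used here, so reads of an overlapping antisense gene cannot be told apart. The deposited table held raw counts and the authors' FPKM per library. Its columns of group means and of the authors' own comparison (fold change, p-value, adjusted p-value and significance) were not used. In 4 genes a split line was rejoined.

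The test on counts was that of edgeR 4.0.16, run under R 4.3.3 (filterByExpr, TMM scaling, glmQLFit with robust estimation, glmQLFTest, no covariate), with Benjamini-Hochberg adjustment over 18569 genes. An SE was obtained as the absolute log2 fold change over the square root of F, and CPM and FPKM are given as mean ± SD of 3 libraries. No pair of libraries had identical counts. With 3 libraries against 3 an exact permutation test cannot give a p under 0.1, so it was not used for calls. The code was tested on simulated data. Groups and replicate numbers came from the sample titles. Alternatives were DESeq2 1.42.0 (its size factors and its Wald test), library size only, 2 other count filters, limma 3.58.1 (voom, and log2 of FPKM plus 1 or 0.1), a replicate block, Ttr as a covariate, 2 other call rules and leaving out each library.

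The members and gene lists were chosen with earlier results of these data known. Of 152 genes in the lists, 145 were named in the table, and Klf17, Hdac1, Ly6c1, Ly6c2 and 3 hemoglobin genes were not analysed here. All members and other KLF and SP genes could be named, with the 2 called genes of largest change in each other list, markers that bear on a member, and the 2 genes most like each member. Genes named beyond that rule were chosen after their values were seen, and some genes of the lists are counted but not reported here by name. Of the remaining marker lists, 2 of 6 oligodendrocyte genes were called, both lower, and no choroid plexus or erythrocyte gene was. Promoter windows came from RefSeq on GRCm38.p6, and gene coordinates are those of the deposited table, which is another assembly.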

Additional observations from a re-analysis of the deposited data

How the results depend on the processing

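Klf2, Klf4, Klf6 and Klf13 kept their direction and their call in all 16 alternatives, and no member reversed in any of the 144 values computed for single members, of which 125 kept direction and call, 18 lost the call and 1 gained it. The cause of each change was not tested, except that fewer libraries or a stricter fold rule were part of the alternative itself. With library size only, Klf7 was called at 0.46, Klf9 was -0.05 and Klf15 -0.32, both not called, and 1 member was lower. With limma on log2 of FPKM plus 1 or 0.1, 1 member was lower each time, Klf9 was -0.05 in both and Klf15 was -0.29 and -0.31. Of all genes called, 75.7% were higher with library size only, and 75.1% and 75.5% with limma on FPKM plus 1 and 0.1. With Ttr, a choroid plexus gene, as a covariate, Klf9 was -0.30 (adjusted p = 0.0682). With a fold change over 2, 2760 genes and 4 members were called, 0 of them lower. Without 1 library at a time, 5330 to 7976 genes and 5 to 8 members were called, 3 to 5 higher and 2 to 3 lower. The fewest members, 5 with 3 higher, came without sham replicate 1 or sham replicate 3. Over the same 6 alternatives the log2 fold change was 1.0 to 1.46 for Klf2, 1.74 to 2.13 for Klf4, 0.79 to 1.27 for Klf5, 1.31 to 1.58 for Klf6, 0.06 to 0.29 for Klf7, -0.37 to -0.24 for Klf9, 0.35 to 0.78 for Klf10, -0.72 to -0.54 for Klf13 and -0.67 to -0.47 for Klf15. The call of Klf9 was lost without any 1 library other than I/R replicate 3.

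Libraries with the same replicate number did not deviate together (correlations -0.097, 0.056 and -0.184), so these values showed no pairing by number. So few correlations cannot exclude it, and the highest, 0.267, was between I/R replicate 3 and sham replicate 1. With the replicate number as a block, 6332 genes and 7 members were called, 5 higher and 2 lower, and Klf9 was -0.31 (adjusted p = 0.0822). Each member had at least 140 counts in each library, and 3 libraries a group limit the precision.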
